A study of Drosophila melanogaster with 6 samples.

Results

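The genes described here make, receive and act on the steroid hormone ecdysone. They are 10 genes chosen by name: phm, dib, sad, shd and spo of hormone synthesis, EcR and usp of the receptor, and ftz-f1, Eip75B and Eip74EF of the response. All 10 were measured, through 22 of the 21158 RefSeq transcript entries of each array, and they stand among 13690 genes with a signal above 0. The total RNA came from ovaries of Drosophila melanogaster adults, raised on cornmeal food and given yeast, and was hybridized to tiling arrays. The 3 uap56 and 3 vasa arrays carry the names of Hel25E, which encodes the RNA helicase UAP56, and of vas, which encodes the germline helicase Vasa. The labels state no alleles and no age, and do not say whether replicates came from separate flies, so the p-values reflect only how far these samples spread, which may be technical. Wild-type ovaries were not analysed here, and each difference is therefore only one between uap56 and vasa.

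In insects, a set of enzymes, among them cytochrome P450 enzymes of the Halloween group, turns dietary sterol into ecdysone. A last hydroxylation makes the active hormone. The hormone binds a heterodimer of 2 nuclear receptors, EcR and Ultraspiracle, which switches on a first tier of transcription factors that in turn control later targets. In the adult female the ovary is a source of ecdysone, and the hormone acts in germline stem cell maintenance, in the follicle cells, in the passage of egg chambers into yolk uptake, and at ovulation.

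Values are the authors' normalized intensities on a linear scale. Each gene is read from its transcript entry with the highest mean over the 6 arrays. Brightness depends on the probes of a transcript, so levels are compared between groups and never between genes. Medians of the arrays lay between 163 and 184, and between 166 and 223 entries per array stood at the lowest value of 1, which none of the 10 genes reached on any array. For 6 neuron genes, means ran from 19.3 (Syt1) to 148 (nSyb) in uap56 and from 17.2 (Syt1) to 175 (brp) in vasa. Whether the dimmer entries of the 10 genes lay above background hybridization was not tested. As a check of the labels, vas stood at 1698 ± 341 in uap56 and 297.3 ± 75.1 in vasa (SD, n = 3 each), a 5.75-fold higher signal in uap56 (adjusted p = 0.00183 in the limma fit described below, and 0.0856 with a single variance prior). Hel25E averaged 1419 ± 326 in uap56 against 1610.3 ± 192 in vasa, with overlapping arrays (adjusted p = 0.642, limma), so its RNA level does not separate the groups. Among 10 germline markers, nanos averaged 5579 ± 322 in uap56 and 3455 ± 275 in vasa, and osk 2900 ± 342 in uap56 and 4234 ± 873 in vasa. The values of bam were 144 ± 15.1 in uap56 and 172 ± 10.3 in vasa. Those of grk and bgcn lay below the array medians, with grk at 68.3 ± 15.9 in uap56 and 107 ± 21.4 in vasa. The values of bgcn were 46.5 ± 11.3 in uap56 and 45.5 ± 13.3 in vasa. Of 4 genes listed for the larval ring gland and its input neurons, spok, jhamt and Akh averaged 19.5, 31.2 and 7.43 in uap56. In vasa they averaged 19.7, 18.8 and 21.1. The other, Ptth, averaged 84.0 in uap56 and 81.5 in vasa. The bulk samples cannot tell fewer cells of a type from less RNA per cell.

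No difference between uap56 and vasa ovaries passed the test for any of the 10 genes. In the limma fit over all genes with Benjamini-Hochberg adjustment, 0 of 10 passed a threshold of 0.05, where 3.83% of all genes passed (340 higher in uap56 and 185 higher in vasa, and 376 and 344 after quantile normalization), and 0 of 10 had an unadjusted p under 0.05, which 18.2% of all genes had. Adjusted p-values of the 10 ran from 0.342 for spo to 0.892 for ftz-f1. Log2 differences, given throughout as uap56 minus vasa, ran from -0.64 for spo to 0.34 for phm, with 5 genes above 0 and 5 below. Their median was -0.05, beside 0.02 for all genes. Without overlap between uap56 and vasa arrays were 3 of the 10, beside 23.5% of all genes: sad was higher in uap56 (13.5% of all genes), and spo and usp were higher in vasa (10% of all genes, 1369 of 13690). A p above the threshold does not show that the levels were alike, and the 95% intervals below give the differences that the arrays leave possible.

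**Figure D1:**
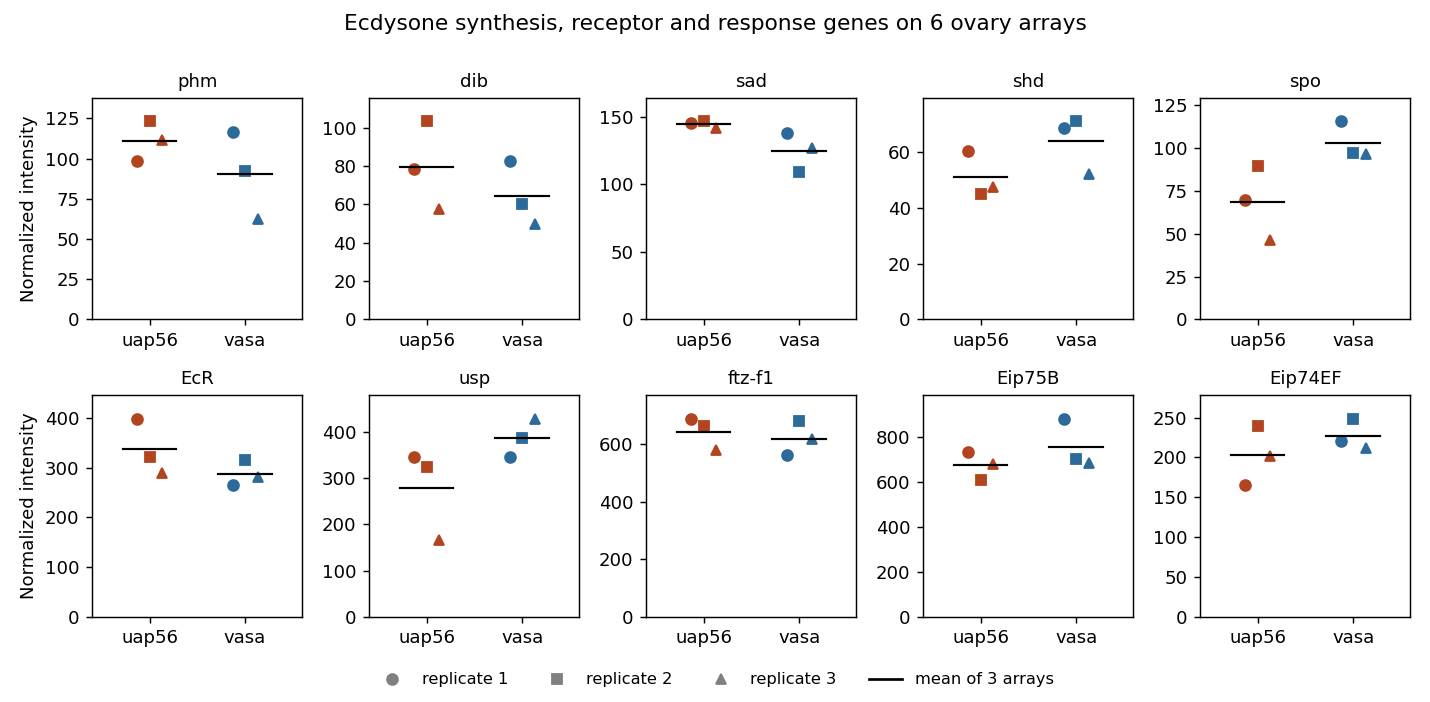
Normalized intensity (linear axes from 0) of each gene's brightest transcript entry on 3 uap56 and 3 vasa arrays, with a symbol per replicate number and a line at the mean. Groups lie apart for sad, spo and usp and overlap for the others, and usp on uap56 replicate 3 (167) lies far below its other 5 arrays.

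The synthesis genes are described in the order in which their enzymes are thought to act. The product of spo works in the early steps of the pathway, which are not resolved chemically. Its entry, NM_139718, had 69.7, 89.7 and 46.1 in uap56, against 116, 97.1 and 96.3 in vasa. Every vasa array was above every uap56 array, and the uap56 arrays spread over a wider range. The means were 68.5 ± 21.8 in uap56 and 103 ± 10.9 in vasa, and the log2 difference was -0.64 ± 0.32 (SE; 95% interval -1.36 to 0.08; adjusted p = 0.342, limma). With an array left out the difference ran from -0.86 (without uap56 replicate 2) to -0.38 (without uap56 replicate 3).

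The products of phm and dib hydroxylate the side chain of the sterol. The entry of phm (NM_133091), called phtm in the current RefSeq table, had 98.7, 123 and 111 in uap56, against 116, 92.1 and 62.4 in vasa. The uap56 arrays lay within or above the vasa range, and vasa replicate 3 was the lowest of the 6. The log2 difference of phm was 0.34 ± 0.30 (SE; 95% interval -0.34 to 1.01; adjusted p = 0.617, limma). It was 0.10 without vasa replicate 3 and 0.55 without vasa replicate 1. For dib (NM_080071) the values were 78.2, 103 and 57.4 in uap56, against 82.5, 60.3 and 49.9 in vasa. The groups overlapped over most of their range, the log2 difference was 0.30 ± 0.35 (SE; 95% interval -0.48 to 1.08; adjusted p = 0.716, limma), and with an array left out it ran from 0.09 (without uap56 replicate 2) to 0.52 (without uap56 replicate 3).

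The product of sad hydroxylates the ring system and yields ecdysone. Its entry, NM_141866, had 146, 147 and 141 in uap56, against 138, 109 and 127 in vasa. The 3 uap56 arrays were close to each other and all lay above the vasa arrays. The means were 145 ± 2.75 in uap56 and 124 ± 14.6 in vasa, which is 1.17-fold higher in uap56 (95% interval 0.828 to 1.65), with a log2 difference of 0.22 ± 0.22 (SE; adjusted p = 0.660, limma). Although the arrays did not overlap, the interval included 1, and the log2 difference was 0.13 without vasa replicate 2.

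The enzyme encoded by shd converts ecdysone to the active hormone in target tissues, and in mature follicle cells of the fly it is needed for ovulation. Its brighter entry, NM_140452, had 60.4, 45.1 and 47.6 in uap56, against 68.7, 71.0 and 52.1 in vasa. The highest uap56 array lay above the lowest vasa array, so the groups overlapped. The log2 difference was -0.32 ± 0.32 (SE; 95% interval -1.05 to 0.40; adjusted p = 0.666, limma). The other shd entry gave -0.35. Among the 5 synthesis genes, 3 differences were above 0 and 2 below. The mean of sad over the 6 arrays lay above the median gene, and the means of the other 4 lay between the 25th percentile and the median.

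The receptor genes did not pass either. EcR encodes the hormone-binding subunit, and its brightest entry, NM_165462, had 399, 323 and 290 in uap56, against 265, 316 and 282 in vasa. Only uap56 replicate 1 and replicate 2 lay above the vasa range. The means were 337 ± 56.2 in uap56 and 288 ± 26.0 in vasa, with a log2 difference of 0.22 ± 0.18 (SE; 95% interval -0.19 to 0.63; adjusted p = 0.594, limma). It was 0.09 without uap56 replicate 1 and 0.32 without uap56 replicate 3. The 5 EcR entries gave differences between 0.16 and 0.22, and the groups overlapped in each.

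The gene usp encodes the partner subunit, the fly's homologue of the vertebrate retinoid X receptors. Its entry, NM_057433, had 345, 325 and 167 in uap56, against 347, 387 and 430 in vasa. The groups did not overlap, but uap56 replicate 1 (345.4) and vasa replicate 1 (347.0) nearly touched, and uap56 replicate 3 was the lowest array. The means were 279 ± 97.7 in uap56 and 388 ± 41.4 in vasa, with a log2 difference of -0.54 ± 0.27 (SE; 95% interval -1.16 to 0.08; adjusted p = 0.346, limma). The size of this difference rested on uap56 replicate 3, without which it was -0.21 (adjusted p = 0.593, limma). At the other end it was -0.73 without uap56 replicate 1 (adjusted p = 0.205, limma).

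The response genes are nuclear receptor and ETS transcription factor genes. ftz-f1 encodes an orphan nuclear receptor that gives tissues competence to respond to later hormone pulses and acts in follicle maturation. Its brighter entry, NM_168775, had 690, 664 and 580 in uap56, against 562, 680 and 618 in vasa. The groups overlapped almost entirely, and the difference was 0.06 ± 0.15 (SE; 95% interval -0.28 to 0.40; adjusted p = 0.892, limma), and -0.012 to 0.13 with an array left out. The 2 entries differed in sign, with -0.07 in the other.

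Eip74EF encodes the ETS-domain factors E74, which are needed in the germline at mid-oogenesis. Its brightest entry, NM_001014590, had 166, 240 and 201 in uap56, against 221, 249 and 212 in vasa. The groups overlapped, with uap56 replicate 1 the lowest array. The log2 difference was -0.18 ± 0.21 (SE; 95% interval -0.64 to 0.29; adjusted p = 0.717, limma). It was -0.04 without uap56 replicate 1 and -0.31 without uap56 replicate 2. Its 4 entries gave -0.23 to -0.18, and 2 of them held the same values on every array.

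**Figure D2:**
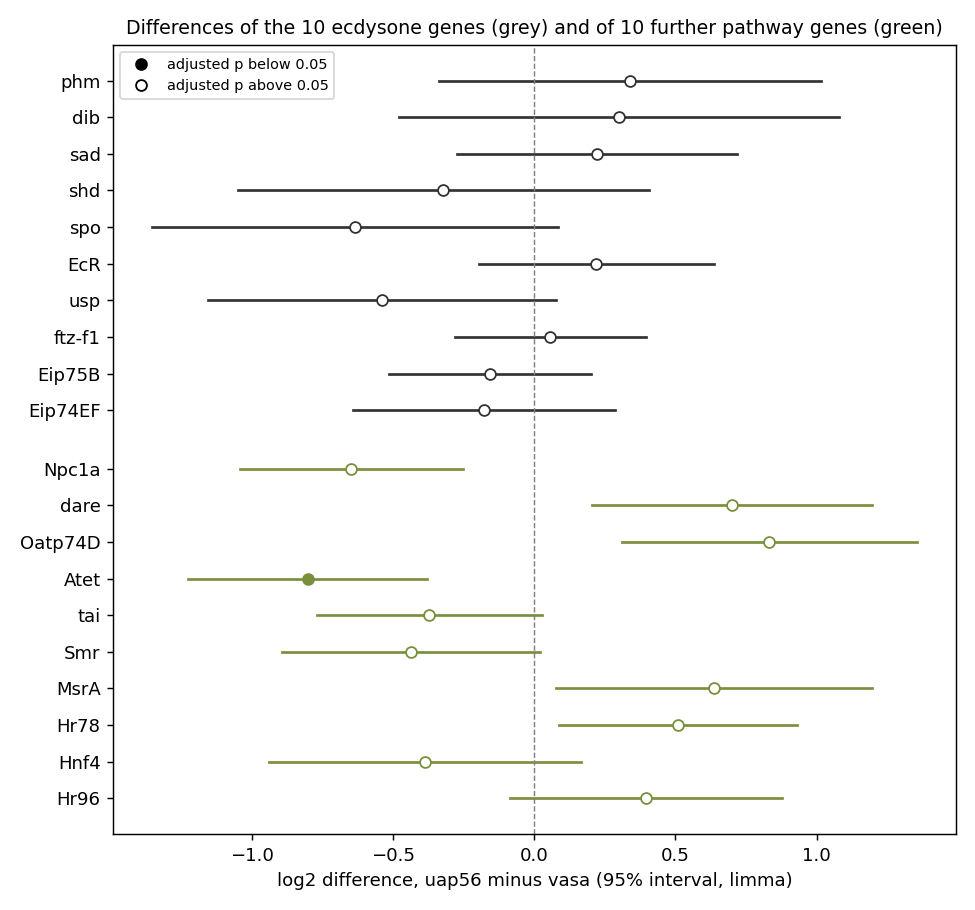
Log2 difference (uap56 minus vasa, horizontal axis) with its 95% interval for the 10 genes and for 10 further pathway genes, with filled symbols for an adjusted p below 0.05. All 10 intervals of the ecdysone set cross 0, and of the further genes Atet is filled.

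Eip75B encodes the nuclear receptor isoforms E75, which are tied to the choice between egg chamber development and death at mid-oogenesis. Its entries differed more among themselves than those of the other genes. The brightest, NM_168755, had 736, 612 and 682 in uap56, against 884, 702 and 686 in vasa. The groups overlapped and the log2 difference was -0.16 ± 0.16 (SE; 95% interval -0.51 to 0.20; adjusted p = 0.673, limma). It was -0.04 without vasa replicate 1, -0.09 without uap56 replicate 2, -0.25 after quantile normalization and -0.38 with the mean over the 4 entries.

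The other 3 entries of Eip75B had larger differences. NM_079409 had 424, 398 and 319 in uap56, against 569, 480 and 509 in vasa, and NM_168756 had 282, 283 and 243 in uap56, against 452, 317 and 364 in vasa. In both, all uap56 arrays lay below all vasa arrays. NM_168757 had 602, 527 and 453 in uap56, against 863, 599 and 706 in vasa, and there uap56 replicate 1 (601.9) lay just above vasa replicate 2 (598.9). With every transcript entry as a line of its own in the limma fit, the log2 differences were -0.46 ± 0.17 for NM_079409 (SE; adjusted p = 0.162), -0.47 ± 0.18 for NM_168756 (SE; adjusted p = 0.189) and -0.45 ± 0.18 for NM_168757 (SE; adjusted p = 0.204). None passed, although the unadjusted p was under 0.05 for these 3 (0.0210, 0.0281 and 0.0322) and for no other of the 22 entries of the set, where 19.5% of all entries had such a p. In that fit 5.09% of 20765 entries passed, and the arrays did not overlap for 24.6% of all entries, beside 5 of the 22 (2 of Eip75B and those of sad, spo and usp). Entries of a gene can share probes, so the 3 are not independent of each other.

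**Figure D3:**
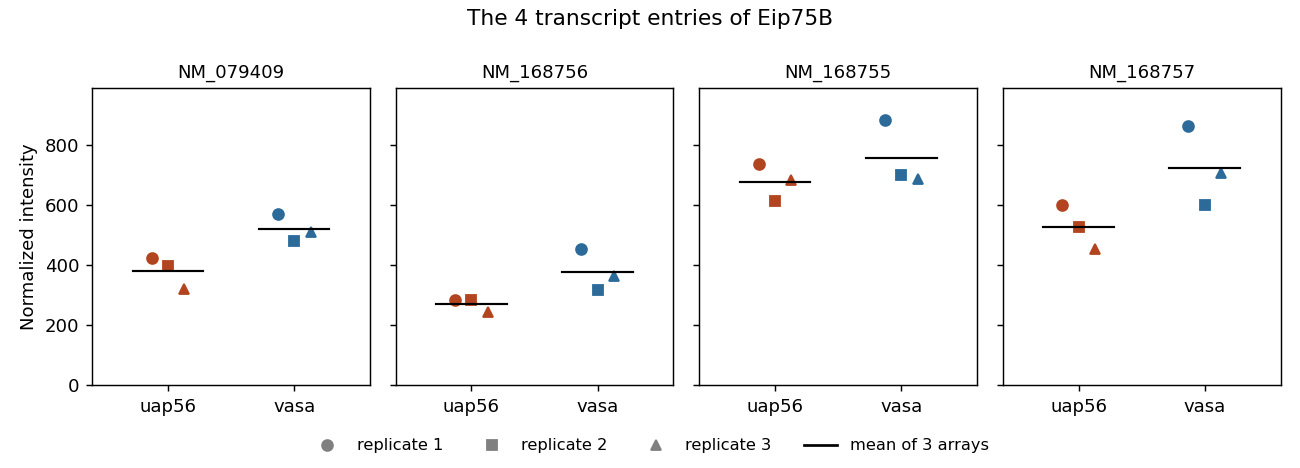
Normalized intensity (linear axis from 0, shared) of the 4 Eip75B transcript entries on 3 uap56 and 3 vasa arrays, with a line at the mean. The groups lie apart for NM_079409 and NM_168756, nearly apart for NM_168757, and overlap for the brightest, NM_168755.

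To see whether the entries of Eip75B changed unequally, each was divided by the brightest entry of the same array. NM_168757 stood at 0.818, 0.860 and 0.665 of NM_168755 in uap56, against 0.976, 0.853 and 1.03 in vasa. The ratio of NM_168756 was 0.383, 0.462 and 0.357 in uap56, against 0.511, 0.452 and 0.531 in vasa, and that of NM_079409 was 0.575, 0.650 and 0.467 in uap56, against 0.644, 0.684 and 0.743 in vasa. On the log2 scale the ratios differed by -0.29, -0.32 and -0.30 in that order of entries, with overlapping arrays. A two-sided exact permutation test gave p = 0.2 for each (adjusted over 12 ratios 0.48), and 3 arrays against 3 cannot give less than 0.1. Of the 12 such ratios over the 5 genes with several entries, 1 reached 0.1, that of NM_168741 to the brightest entry of Eip74EF (0.916, 0.910 and 0.923 in uap56, against 0.935, 0.927 and 0.982 in vasa; adjusted p = 0.48, exact permutation test).

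Across arrays the genes of the set did not share a common order. The ratio of the highest to the lowest array was 1.23 for ftz-f1 and 2.57 for usp, the ends of the range. The array uap56 replicate 3 was the lowest of 6 for spo and usp, vasa replicate 3 for phm and dib, uap56 replicate 2 for shd and for the brightest entry of Eip75B, uap56 replicate 1 for Eip74EF, vasa replicate 1 for EcR and ftz-f1, and vasa replicate 2 for sad.

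Patterns over the 6 arrays were compared with those of other genes brighter than the median gene, for spo and usp, which had the smallest p among the synthesis genes and among the others. The patterns most like spo were those of Nagk (Pearson's r = 0.990), CG30071 (0.988) and Opa1 (0.987), among 6845 genes searched. Those most like usp were CG6565 (0.995), Jupiter (0.991) and Top1 (0.990), among 6844. Top1, for DNA topoisomerase, had 2108, 1939 and 1240 in uap56, against 2003, 2155 and 2213 in vasa, so that uap56 replicate 3 was its lowest array, as for usp. With 6 points and so many genes searched, values of r this high are a description only, and none of these 6 genes passed the test between groups (adjusted p = 0.137 for Nagk to 0.547 for Opa1).

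**Figure D4:**
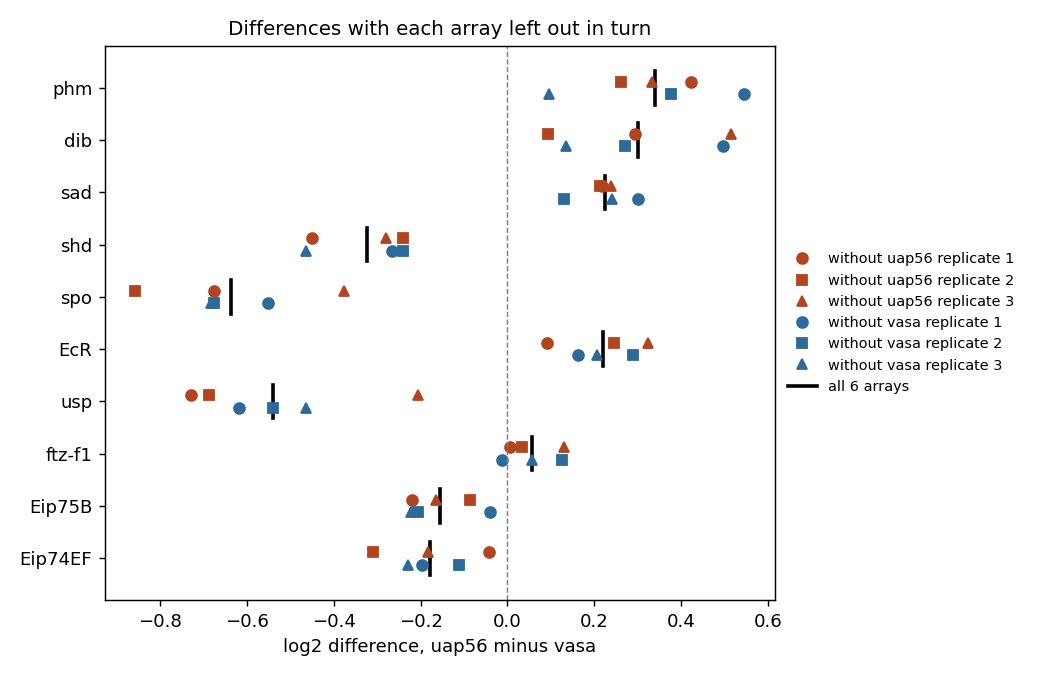
Log2 difference (uap56 minus vasa) of the 10 genes with each of the 6 arrays left out in turn, beside the value from all 6 arrays (bar). The differences of spo and usp are nearest to 0 without uap56 replicate 3, and only ftz-f1 crosses 0.

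Around these genes, 60 further genes of the pathway were read from the same fit, in 5 lists. Atet, which encodes an ABC transporter that in the larval gland loads ecdysone into vesicles for release, was lower in uap56 and was the only one of the 60 to pass. The counts were 0 of 60 higher in uap56, where 2.48% of all genes passed, and 1 of 60 higher in vasa, where 1.35% passed. At an unadjusted p under 0.05 there were 10 of 60, a share close to the 18.2% of all genes. Without overlap between uap56 and vasa arrays were 14 of 60 (5 higher in uap56 and 9 higher in vasa), a share close to the 23.5% of all genes. The median log2 difference of the 60 was -0.15, beside 0.02 for all genes, with 40 of 60 below 0, against 48.6% of all genes. Without uap56 replicate 3 this median was -0.04, beside 0.07 for all genes. Of the 60 genes, 50 had a mean above the 25th percentile, and 3 had an array at the lowest value of 1. Among genes above that percentile the median was -0.15 as well, beside 0.02 for all such genes.

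The list of transport and clearance held 5 genes. Atet had 321, 333 and 253 in uap56, against 449, 518 and 619 in vasa. The groups did not overlap, and the signal was 1.74-fold lower in uap56, with a log2 difference of -0.80 ± 0.19 (SE; 95% interval -1.23 to -0.38; adjusted p = 0.0492, limma). This call stood at the edge of the threshold: it held in 4 of 16 alternative fits, and in none of the 6 that left out an array (adjusted p = 0.0536 to 0.197). Oatp74D, the importer that brings ecdysone into cells, had 205, 269 and 194 in uap56, against 104, 128 and 142 in vasa. Its groups did not overlap, and its log2 difference was 0.83 ± 0.23 (SE; adjusted p = 0.0872, limma), not past the threshold. Cyp18a1, whose product inactivates the hormone by hydroxylation, had 255, 227 and 215 in uap56, against 337, 322 and 451 in vasa (-0.66 ± 0.19, SE; adjusted p = 0.0987, limma). Cyp18a1 was picked here with its values known. The other 2 genes of the list, E23 (-0.16) and Eo (-0.02), had overlapping groups.

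In the list of other synthesis genes, 0 of 12 passed in either direction. Npc1a, which moves sterol out of endosomes and is needed for hormone synthesis in the larval gland, had 291, 366 and 259 in uap56, against 488, 468 and 465 in vasa. All uap56 arrays were below the vasa arrays (log2 difference -0.65 ± 0.18, SE; adjusted p = 0.0793, limma). The gene passed in 1 of 16 alternative fits, that after quantile normalization (adjusted p = 0.0261, limma). With an array left out its adjusted p ran from 0.0914 to 0.217 (limma). The gene dare encodes adrenodoxin reductase, which supplies electrons to mitochondrial P450 enzymes such as those of dib, sad and shd. It had 329, 273 and 245 in uap56, against 213, 171 and 141 in vasa, a log2 difference of 0.70 ± 0.22 (SE; adjusted p = 0.126, limma) with groups apart.

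Among 8 receptor partners and cofactors, 0 passed. Those with the smallest p were the corepressor gene Smr, at 475 ± 88.2 in uap56 and 644 ± 129 in vasa (-0.44, adjusted p = 0.303), and the coactivator gene tai, at 381 ± 59.6 in uap56 and 491 ± 50.9 in vasa (-0.37, adjusted p = 0.310, limma, and -0.47 to -0.24 with an array left out). Among 24 early and late response genes, 0 passed, with a median of -0.14. The nuclear receptor gene Hr78 stood at 398 ± 53.5 in uap56 and 280 ± 45.0 in vasa (0.51, adjusted p = 0.190), and MsrA, a methionine sulfoxide reductase gene first known as an ecdysone-induced transcript, at 758 ± 206 in uap56 and 484 ± 113 in vasa (0.64, adjusted p = 0.216, limma). The early gene br, also picked with its values known, had 358, 328 and 251 in uap56, against 375, 361 and 365 in vasa (-0.25, adjusted p = 0.529, limma). Among 11 other nuclear receptors, 0 passed. Of those brighter than the median gene, the smallest p were those of Hr96 (0.40, adjusted p = 0.379, limma, and 0.20 to 0.55 with an array left out) and Hnf4 (-0.39, adjusted p = 0.463, limma, and -0.61 to -0.21 with an array left out). The dimmer eg, picked with its values known, had 62.3, 64.3 and 51.3 in uap56, against 42.8, 30.0 and 23.01 in vasa (0.93, adjusted p = 0.245, limma). It was the only 1 of the 11 without overlap, beside 23.5% of all genes.

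The ecdysone pathway runs in germline and follicle cells, and markers of both were read beside it. The summed signal of 8 chorion genes, which late follicle cells express, ranged from 93483 to 126841 in uap56 and from 80434 to 85335 in vasa. Of the 8, 2 passed toward uap56, Cp15 and Cp16, where 2.48% of all genes passed. All 8 chorion differences were above 0, against 51.4% of all genes. Without overlap were 3 of the 8, each higher in uap56 (13.5% of all genes). Of 10 germline genes, nanos passed toward uap56 (2.48% of all genes) and stau toward vasa (1.35% of all genes). Without overlap were 5 of the 10, beside 23.5% of all genes. Of these, 4 were higher in vasa (10% of all genes) and 1 in uap56 (13.5% of all genes). The median log2 difference of the 10 was -0.38, beside 0.02 for all genes. Their summed signal, to which the bright nanos (0.69) and osk (-0.53) gave opposite differences, overlapped (11759 to 14121 in uap56 and 11440 to 14822 in vasa). The summed signals of 7 early and mid follicle cell genes (2347 to 3266 in uap56 and 2485 to 3546 in vasa), of 8 yolk and vitelline membrane genes (67569 to 89532 in uap56 and 67527 to 83823 in vasa) and of 8 muscle genes (5524 to 8517 in uap56 and 5225 to 7794 in vasa) overlapped as well. Fat body, gut, neuron, hemocyte and ring gland lists also overlapped, with 0 members past the threshold. The part of these cells in the values of Atet and of the ecdysone genes was not tested.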

How the data were processed

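Per the labels, the deposited values are array intensity, summarized and normalized by the authors per RefSeq transcript from DNA labelled with biotin (Affymetrix kit) on tiling arrays. How they were summarized and normalized, and on which genome build, is not given in the sources used here, so no positions are printed. The 393 entries at 0 on every array were left out, and log2 was taken with no pseudocount. Entries were named through a RefSeq table on Release 6 plus ISO1 MT of the fly genome: 19234 by accession, 1314 by gene name, and 610 kept the file's name. Each gene was read from its brightest entry. Groups were compared with limma 3.58.1 in R 4.3.3 (lmFit, eBayes with an intensity trend and robust option, two-sided, Benjamini-Hochberg over 13690 genes, threshold 0.05). A run on simulated data checked the code only, and does not show how well the fit suits these arrays. For arrays no depth applies, and their number limits the precision.

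The 10 genes, the lists and the fit were chosen with earlier results of these data known. The genes named outside the set are, per list, those past the threshold and the 2 with the smallest p among genes brighter than the median gene, unless marked. The list name DOR could not be tied to 1 gene and was left out. The transposon tables were not used here.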

Additional observations from a re-analysis of the deposited data

How the results depend on the processing

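In 16 alternative fits 0 of the 10 genes passed. Some changed only the variance prior, the replicate block, the intensity filter or the gene names, or tested every transcript entry. These left the log2 differences of the 10 unchanged, so no direction could change in them. With these fits counted in, a gene kept its direction in 157 of 160 values. The exceptions were those of ftz-f1, at -0.027 after quantile normalization, -0.0050 with the mean over transcripts, and -0.012 to 0.13 with an array left out (lowest without vasa replicate 1). The median of the 10 ran from -0.13 after quantile normalization to 0.0070 without vasa replicate 2. Hel25E ran from -0.31 to 0.0040 with an array left out (highest without uap56 replicate 3). The count of genes past the threshold was 525, and 2 with a single variance prior, 226 with the replicate block, 1056 of 20765 with every transcript entry, and 70 to 509 with an array left out (70 when uap56 replicate 2 was dropped, 202 for uap56 replicate 3, 88 for vasa replicate 2 and 90 for vasa replicate 3). The count of further pathway genes was 1, and 2 after quantile normalization. It was 0 with a single variance prior, the trend without the robust option, centring on the array median, the replicate block, the mean over transcripts, the file's gene names, and in each fit without an array (0 to 0). The causes were not tested. Same-numbered arrays did not deviate together (r from -0.028 to 2.9e-05) and none correlated best with its own number. With so few arrays per group, these correlations cannot show whether same-numbered arrays were processed together, so the block is an alternative only. Without the block the Atet call had an adjusted p of 0.0492 and with it 0.113. Of the 5 synthesis genes, 4 were dimmer than the median gene.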
